A study of Homo sapiens with 5 samples.

Results

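Desmosomes are spot-like junctions that rivet the keratin filaments of one epithelial cell to those of its neighbour. Their transmembrane cadherins, the desmogleins and desmocollins, bind across the gap between the cells, and inside the cell plakoglobin and the plakophilins couple the cadherins to desmoplakin, which holds the keratins. In squamous epithelium the make-up of the junction changes with the layer: DSG2 and DSC2 are the widespread forms of simple and basal cells, whereas DSG3, DSC3 and PKP1 belong to stratified epithelium. Of the 33538 genes in the count matrices, 9 were followed here, chosen by name as desmosome genes. The rule uses no measured value, but the choice was made with earlier results of these data known. The members were DSP (desmoplakin), the plakophilins PKP1, PKP2 and PKP3, the desmogleins DSG2 and DSG3, the desmocollins DSC2 and DSC3, and PERP. PERP is a small desmosomal membrane protein first known as a target of p53 and p63.

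The cells were KYSE30-Luc-GFP, an established line of human esophageal squamous cell carcinoma (ESCC) that carries luciferase and green fluorescent protein and was profiled by droplet single-cell RNA sequencing in 5 libraries. The parental library came from culture, and the other 4 held GFP-positive living cells sorted from lungs of NOD SCID mice that had received the cells by tail vein 6 h, 48 h, 2 months or 4 months before. Every timepoint was 1 library, in which cells of several mice were pooled except at 4 months, so that no difference between timepoints could be tested against the spread between animals. Every interval below is a 95% interval that covers counting error only.

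After the quality filter the libraries held 9059 parental cells, 1957 cells at 6 h, 1149 cells after 48 h, 3322 after 2 months and 4499 after 4 months, with a median of 12979 to 39076 unique molecular identifiers (UMIs) per cell. Among these 19986 cells, 198 barcodes were found in more than 1 library, and pairs of libraries shared 1 to 62. The parental library was a mixture of a large and a small class. Cells were called signature-positive when they held at least 1 UMI of C19orf33, S100A14 or RHOD and at least 1 of CST6, CD44 or TM4SF1, which are genes that the study used to mark metastasis-initiating cells, and signature-negative otherwise. In the parental library 14.4% of cells were signature-positive, as were 97.9% of cells at 6 h, 95.6% after 48 h, 81.1% at 2 months and 98.4% at 4 months. The signature-negative cells at 6 h, 48 h and 4 months were shallow, with medians of 1931, 1818 and 1552 UMIs. The signature-positive cells of these libraries had medians of 13380, 40676.5 and 27836 UMIs. Whether these shallow cells belong to the large parental class was not tested. The squamous markers KRT5, KRT14, KRT17, KRT6A, TP63, SFN and S100A2 summed to 4.62 counts per 1000000 UMIs (CPM) in parental signature-negative cells, in which none of the 7 reached 5 CPM. They summed to 841 CPM in the parental signature-positive cells, in which 4 of the 7 reached 5 CPM, and to between 2955 and 24916 CPM in the lung libraries. At 6 h and 48 h 6 of the 7 reached 5 CPM in the whole library, and KRT5 did not. In the signature-negative cells of the lung the 7 markers summed to 1430 CPM at 6 h, 264 CPM at 48 h, 155 CPM at 2 months and 20134 CPM at 4 months. The 628 signature-negative cells at 2 months had a median of 36831 UMIs, against 19545 in the 2694 signature-positive cells of the same library, and 484 CPM of UCHL1, a neuronal ubiquitin hydrolase that was at 286 CPM in the parental signature-negative cells. Of these 628 cells, 8 shared a barcode with a parental cell, as did 33 of the 2694 signature-positive cells. Results are therefore given for the whole libraries and for the classes.

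Summed over the 9 genes, desmosome transcripts made up 328 CPM of the parental library, 1157 CPM at 6 h, 899 CPM at 48 h, 1663 CPM at 2 months and 3151 CPM at 4 months. Each of the 4 lung libraries was thus above the parental library, and 48 h was the lowest of them. PERP alone accounted for 38.8% of the sum in the parental library and for 74.6% at 4 months. Without PERP, the other 8 genes summed to 201, 596, 438, 547 and 800 CPM in the same order, so that the level at 2 months was below that at 6 h. In signature-positive cells alone this turned, with 684 CPM at 2 months and 597 CPM at 6 h. The signature-negative cells, 18.9% of the 2-month library, held 176 CPM of the 8 genes. As a UMI stands for 1 counted transcript molecule whatever its length, levels of different genes are set side by side as CPM. Whether genes differ in how fully their transcripts were counted was not tested.

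DSP, the plakin that ties the junction to keratin filaments, lies on chromosome 6 (GRCh38, 7541338 to 7586714, plus strand). Its level was 62.8 CPM (61.7 to 63.9) in the parental library, 222 CPM (216 to 227) at 6 h, 127 CPM (123 to 130) at 48 h, 210 CPM (207 to 213) at 2 months and 306 CPM (303 to 309) at 4 months. No counting interval overlapped that of another library. The parental classes differed less than 2-fold, at 68.3 CPM in signature-positive and 61.8 CPM in signature-negative cells, and every lung library stood above both. With each cell thinned to 1000 UMIs, DSP was found in 6.24% of parental cells (5.75 to 6.75%) and in 15.6%, 9.66%, 20.1% and 24.0% of cells in the lung libraries in order of time. Before thinning these shares were 66.7%, 67.0%, 76.5%, 87.1% and 90.1%.

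The plakophilins are armadillo proteins that cluster desmosomal cadherins and bind DSP. PKP3, on chromosome 11 (392614 to 404908), was the plakophilin that separated the parental classes: 1503 UMIs in signature-positive cells gave 47.7 CPM (45.4 to 50.2), and 15 UMIs in signature-negative cells gave 0.0865 CPM (0.0484 to 0.143). The ratio was 552-fold (333 to 988). A UMI of PKP3 was found in 64.0% of signature-positive cells, of median depth 24854 UMIs, and in 0.180% of signature-negative cells of median depth 22769 UMIs. The origin of the UMIs behind the second share was not tested. In the whole libraries PKP3 was at 7.41 CPM in culture, 99.7 CPM at 6 h, 107 CPM at 48 h, 49.9 CPM at 2 months and 70.9 CPM at 4 months. PKP3 was thus highest at 48 h, whereas DSP was highest at 4 months.

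PKP2, the plakophilin of simple epithelium and heart, on chromosome 12 (32790745 to 32896798), was lowest at 4 months, where DSP was highest. It was at 17.8 CPM (17.3 to 18.4) in culture, 18.4 CPM (17.0 to 19.9) at 6 h, 14.1 CPM (13.1 to 15.2) at 48 h, 13.5 CPM (12.7 to 14.3) at 2 months and 8.69 CPM (8.18 to 9.22) at 4 months. The intervals of the first pair and those of 48 h and 2 months overlapped, and 4 months stood below all others. PKP2 differed less than 2-fold between the classes, with 22.6 and 17.0 CPM in parental and 13.6 and 13.2 CPM in 2-month signature-positive and signature-negative cells.

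PKP1, the plakophilin of the upper layers of stratified epithelium, on chromosome 1 (201283452 to 201332993), was almost absent from the early libraries. Its counts were 2 UMIs in culture, 4 UMIs at 6 h, 0 UMIs at 48 h, 264 UMIs at 2 months and 1093 UMIs at 4 months. In CPM the last 2 were 3.26 (2.88 to 3.68) and 8.71 (8.20 to 9.24), and 0 UMIs at 48 h allowed up to 0.0641 CPM. The level at 2 months was at least 50.9-fold higher than that at 48 h, taken against this limit of 3 counts. At 4 months PKP1 was found in 10.2% of cells before and 0.867% after thinning to 1000 UMIs. At 2 months, 263 of its 264 UMIs lay in signature-positive cells.

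Within the plakophilins, PKP2 gave 70.6% of UMIs in culture, 15.6% at 6 h, 11.6% after 48 h, 20.2% at 2 months and 9.84% at 4 months. PKP3 gave 29.3%, 84.3%, 88.4%, 74.9% and 80.3%. By class, PKP2 made up 99.5% of plakophilin UMIs in parental signature-negative cells (99.1 to 99.7%) and 94.4% in 2-month signature-negative cells (91.2 to 96.7%), against 32.1% in parental signature-positive cells.

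The desmogleins and desmocollins are neighbours on chromosome 18. Between positions 30989365 and 31549008 the annotation places DSC3, DSC2, DSC1, DSG1, DSG4, DSG3 and DSG2 in this order along 559644 bases, the desmocollins on the minus and the desmogleins on the plus strand. DSG2 and DSG3 are adjacent. The sequence around the start of each is shown here because these neighbours differed in pattern, in 300 bases of GRCh38.p14 from RefSeq (250 before and 50 after the start), with the E2-box CACCTG on either strand in capitals. The E2-box is the site bound by repressors of the SNAI and ZEB families.

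DSG2 (chr18:31497927-31498226, plus strand): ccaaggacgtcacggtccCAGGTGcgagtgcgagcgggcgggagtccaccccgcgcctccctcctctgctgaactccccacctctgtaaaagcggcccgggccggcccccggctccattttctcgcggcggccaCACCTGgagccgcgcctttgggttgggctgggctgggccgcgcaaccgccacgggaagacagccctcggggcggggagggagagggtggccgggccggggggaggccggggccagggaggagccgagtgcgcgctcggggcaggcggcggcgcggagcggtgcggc
DSG3 (chr18:31447491-31447790, plus strand): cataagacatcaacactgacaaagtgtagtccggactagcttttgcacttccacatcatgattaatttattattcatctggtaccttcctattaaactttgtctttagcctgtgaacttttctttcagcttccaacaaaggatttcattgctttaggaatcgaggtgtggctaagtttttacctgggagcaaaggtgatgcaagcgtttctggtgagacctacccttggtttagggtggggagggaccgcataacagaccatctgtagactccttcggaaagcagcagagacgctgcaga

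The DSG2 window held 76.7% G or C and 2 E2-boxes, and the DSG3 window 44% G or C and no match. The median over 35116 promoters of the same length was 58.7%, and 20.6% of them held an E2-box.

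DSG2, the desmoglein found in most epithelia, was at 66.0 CPM (64.9 to 67.1) in culture, 118 CPM (114 to 122) at 6 h, 108 CPM (105 to 111) at 48 h, 66.5 CPM (64.8 to 68.3) at 2 months and 71.1 CPM (69.7 to 72.6) at 4 months. The parental and 2-month intervals overlapped, and 6 h and 48 h were the highest. Parental signature-positive cells held 101 CPM and signature-negative cells 59.6 CPM.

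DSG3, the desmoglein of basal stratified epithelium and an autoantigen of pemphigus, was at 0.747 CPM (0.633 to 0.875) in culture, 18.3 CPM (16.8 to 19.8) at 6 h, 10.7 CPM (9.75 to 11.6) at 48 h, 41.4 CPM (40.0 to 42.9) at 2 months and 96.7 CPM (94.9 to 98.4) at 4 months. No intervals overlapped, and the highest library was 129-fold above the lowest (110 to 153). In culture 147 of its 153 UMIs lay in signature-positive cells, at 4.67 CPM against 0.0346 CPM, a ratio of 135-fold (60.5 to 374). Found in 9.68% of parental signature-positive and 0.0773% of signature-negative cells before thinning, DSG3 was found at 1000 UMIs in 0.0662% of all parental cells, 1.64% at 6 h, 0.609% after 48 h, 5.39% at 2 months and 10.0% at 4 months.

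DSG3 accordingly made up 1.12% of the UMIs of DSG2 and DSG3 together in culture (0.949 to 1.31%), 13.4% at 6 h (12.4 to 14.5%), 8.97% after 48 h (8.24 to 9.76%), 38.4% at 2 months (37.4 to 39.4%) and 57.6% at 4 months (56.9 to 58.3%). At 4 months it exceeded DSG2. In the 2-month library the share was 46.2% in signature-positive and 0.401% in signature-negative cells.

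DSC2, the widespread desmocollin, was at 32.5 CPM (31.8 to 33.3) in culture, 112 CPM (108 to 115) at 6 h, 67.2 CPM (64.9 to 69.6) at 48 h, 119 CPM (117 to 122) at 2 months and 147 CPM (145 to 149) at 4 months. It thus had the same order of libraries as DSP apart from 6 h and 2 months. Its parental classes stood at 37.0 CPM and 31.7 CPM. At 1000 UMIs it was found in 3.31%, 7.77%, 4.96%, 12.2% and 14% of cells.

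DSC3, the desmocollin of basal stratified epithelium, was at 13.4 CPM (12.9 to 13.9) in culture, 8.11 CPM (7.16 to 9.15) at 6 h, 4.04 CPM (3.48 to 4.66) at 48 h, 42.3 CPM (40.9 to 43.8) at 2 months and 89.8 CPM (88.2 to 91.5) at 4 months. It was the member that was lower at 6 h and 48 h than in culture and higher later. Its parental classes ran against those of PKP3 and DSG3: 15.1 CPM (14.5 to 15.7) in signature-negative and 3.94 CPM (3.28 to 4.70) in signature-positive cells, 3.82-fold higher in the negative class (3.19 to 4.62). At 2 months the signature-negative cells held a like 15.5 CPM (13.9 to 17.2), whereas the signature-positive cells held 52.3 CPM (50.4 to 54.1).

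DSC3 made up 29.1% of the UMIs of DSC2 and DSC3 together in culture, 6.77% at 6 h, 5.67% after 48 h, 26.2% at 2 months and 37.9% at 4 months. The share was 32.2% in parental signature-negative (31.2 to 33.2%) and 34.0% in 2-month signature-negative cells (31.1 to 37.1%), intervals that overlapped, and 9.63% in parental signature-positive cells (8.07 to 11.4%).

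PERP lies on chromosome 6 (138088505 to 138107419, minus strand). Of the 7 members with a promoter sequence in the reference, it was the one with an AP-1 motif, TGANTCA on either strand, which 7.71% of all promoters of this length held. The motif is set in capitals.

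PERP (chr6:138107370-138107669, minus strand): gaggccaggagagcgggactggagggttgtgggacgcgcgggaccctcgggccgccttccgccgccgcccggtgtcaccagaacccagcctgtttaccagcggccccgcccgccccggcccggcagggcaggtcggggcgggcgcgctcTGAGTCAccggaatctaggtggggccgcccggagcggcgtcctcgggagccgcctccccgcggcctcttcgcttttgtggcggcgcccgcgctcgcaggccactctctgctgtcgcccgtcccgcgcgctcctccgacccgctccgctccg

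DSP, whose window is shown for comparison, held 2 E2-boxes, as did DSG2. DSC2 held 1 in its window at chr18:31102372-31102671 and none in its other window, chr18:31101211-31101510.

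DSP (chr6:7541421-7541720, plus strand): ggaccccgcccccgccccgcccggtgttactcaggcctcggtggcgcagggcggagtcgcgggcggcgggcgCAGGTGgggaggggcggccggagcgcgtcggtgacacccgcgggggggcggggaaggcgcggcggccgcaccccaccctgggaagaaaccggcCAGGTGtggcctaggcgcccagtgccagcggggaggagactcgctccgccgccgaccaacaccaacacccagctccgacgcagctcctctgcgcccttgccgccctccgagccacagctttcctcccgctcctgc

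The core of p53-family sites occurred in 6 of the 7 members and in 74.0% of all promoters, and AACNGGTT, the motif of grainyhead-like factors, in 0 of 7 and in 1.73% of all. These matches describe letters within the windows. PKP2 and PKP3 had no entry in the promoter table used here.

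PERP was the most abundant member in every library, at 127 CPM (126 to 129) in culture, 561 CPM (553 to 569) at 6 h, 462 CPM (455 to 468) at 48 h, 1116 CPM (1109 to 1123) at 2 months and 2351 CPM (2343 to 2360) at 4 months. The 4-month level was 18.5-fold that of culture (18.2 to 18.7). The parental classes were at 199 CPM and 114 CPM, and the 2-month classes at 1479 CPM and 136 CPM. At 1000 UMIs PERP was found in 11.8% of parental cells and in 38.2%, 29.8%, 59.7% and 79.1% of cells of the lung libraries in order of time.

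To separate class from timepoint, cells of the parental classes were compared first. A gene was counted as higher or lower past 2-fold in the log2 ratio of CPM with 1 CPM added, among genes that reached 5 CPM in one of the groups or both. Of 7 members tested, PKP3 was past 2-fold higher in signature-positive cells, as were 12.9% of all 10718 genes, and DSC3 past 2-fold lower, as were 18.9%. DSG3 was below the minimum level in both classes, and with a minimum of 1 CPM it was counted as higher too. The shares of members past 2-fold were thus near the background, and DSP, DSC2 and PKP2 had log2 ratios of 0.14, 0.21 and 0.39. PERP had a log2 ratio of 0.80 and DSG2 one of 0.75, beside a median of -0.26 over all genes, and with another scaling PERP passed 2-fold at 1.04. Over the 13 comparisons made, other scalings moved all log2 ratios by -0.14 to 0.36, and the medians over all genes are given for that reason.

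Each lung library was then compared as a whole, signature-negative cells included, with the parental signature-positive cells, which were the same reference in all 4 comparisons. At 2 months the 628 signature-negative cells held 21859780 of 80885873 UMIs, so class was not separated from timepoint there. PKP3 was at 49.9 CPM in that whole library, 68.1 CPM in its signature-positive cells and 47.7 CPM in the parental signature-positive cells. At 6 h, 5 of 8 members tested were past 2-fold higher (DSP, PKP3, DSG3, DSC2 and PERP), against 10.6% of all genes, and 0 were lower, against 12.3%. PKP3 was near the limit, at a log2 ratio of 1.05, which was 0.83 with each cell weighing the same. At 48 h, 3 of 7 were higher (PKP3, DSG3 and PERP), against 12.9% of all genes, and 0 lower, against 9.40%. DSG3 had a log2 ratio of 1.04 at 48 h, which 4 other settings took to between 0.70 and 0.95. Of the 1301 parental signature-positive cells, 224 held a UMI of UCHL1, and leaving them out took the log2 ratio of DSC3 at 6 h from 0.88 to 1.41.

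At 2 months, 5 of 8 members were past 2-fold higher than in parental signature-positive cells (DSP, DSG3, DSC2, DSC3 and PERP), against 9.18% of all genes, and 0 lower, against 6.53%. At 4 months, 6 of 9 were higher (these 5 and PKP1), against 8.15% of all genes. PKP2 was lower at a log2 ratio of -1.28, against 14.4% of all genes, and 1 of 9 is near that share. PKP2 was at -0.97 with TMM scaling, a normalization by trimmed means. The median log2 ratio of all genes was -0.23 at 4 months and between -0.05 and 0.11 at the other times. DSG3 was 20.7-fold higher at 4 months (17.6 to 24.5) and DSC3 22.8-fold (19.1 to 27.4), and both were above 99.3% of the genes tested.

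Against the whole parental library, 5 of 8 members were past 2-fold higher at 6 h and 5 of 8 at 48 h, against 17.2% and 19.7% of all genes. At 2 months it was 6 of 8 and at 4 months 7 of 9, against 10.4% and 13.4%. DSC3 was past 2-fold lower at 48 h, as were 24.2% of genes. DSP and DSC2 were just past 2-fold at 48 h, at 2.02-fold and 2.07-fold, and no longer so with TMM scaling. Past 2-fold lower were 0 of 8 at 6 h, against 27.8% of all genes, and 0 of 9 at 4 months, against 30.0%. At 2 months it was 0 of 8, against 11.5%.

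Between consecutive lung libraries the members moved in different ways. From 6 h to 48 h none of 8 passed 2-fold in either direction, against 3.24% of all genes higher and 1.42% lower. The log2 ratios were -0.80 for DSP, -0.73 for DSG3, -0.73 for DSC2 and -0.85 for DSC3, all among the lowest 2.98% of the genes tested, where the median gene was at 0.14. PKP3 was at 0.10. From 48 h to 2 months DSG3, DSC3 and PERP of 8 were past 2-fold higher, against 12.2% of all genes, with 3.89-fold, 10.5-fold and 2.42-fold more CPM. PKP3 was past 2-fold lower, against 13.0% of all genes. In the signature-positive cells of 2 months alone PKP3 was at -0.65, no longer past 2-fold, and DSP and DSC2 passed it as well, at 1.09 and 1.17.

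From 2 to 4 months PKP1, DSG3, DSC3 and PERP of 9 were past 2-fold higher, against 3.03% of all genes, and none was lower, against 9.38%. The ratios were 2.67-fold for PKP1, 2.33-fold for DSG3, 2.12-fold for DSC3 and 2.11-fold for PERP, beside a median log2 ratio of -0.24 over all genes. In signature-positive cells alone 0 members were past 2-fold, with log2 ratios of 0.83, 0.76, 0.77 and 0.67, and with each cell weighing the same it was 0 as well, at 0.94 to 0.99. Signature-negative cells were 18.9% of the 2-month library and 1.58% of that at 4 months. They differed in squamous markers, at 155 CPM at 2 months and 20134 CPM at 4 months, and those of 4 months were shallow.

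Within the 2-month library 6 of 8 members were past 2-fold higher in signature-positive than in signature-negative cells, against 18.6% of all genes, and 0 lower, against 21.9%. DSP was at 270 and 47.9 CPM, PKP3 at 68.1 and 0.732 CPM, DSG3 at 56.7 and 0.274 CPM, and DSC2 at 153 and 30.1 CPM. In the signature-negative cells of culture DSP stood at 61.8 CPM and DSC2 at 31.7 CPM. PKP3 and DSG3 were there at 0.0865 CPM (0.0484 to 0.143) and 0.0346 CPM (0.0127 to 0.0753), below their intervals of 0.418 to 1.19 CPM and 0.101 to 0.597 CPM in the signature-negative cells of 2 months. DSG2 and PKP2 did not differ past 2-fold, with 65.9 against 68.2 CPM and 13.6 against 13.2 CPM.

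The number of members found in a cell followed the summed level. With 1000 UMIs per cell, none of the 9 was found in 72.4% of parental cells (71.5 to 73.3%), 41.3% at 6 h (39.1 to 43.5%), 50.9% after 48 h (48.0 to 53.8%), 29.2% at 2 months (27.7 to 30.8%) and 12.6% at 4 months (11.6 to 13.6%). The mean number found was 0.318, 0.828, 0.648, 1.14 and 1.52. In 2-month signature-negative cells none was found in 71.8% (68.1 to 75.3%), close to the 73.8% of parental signature-negative cells (72.8 to 74.8%), and in 2-month signature-positive cells in 19.3%. At 1000 UMIs PERP alone was found in 11.8% of parental and 79.1% of 4-month cells, against 6.24% and 24.0% for DSP. At full depth, 90.1% of 4-month cells held a UMI of DSP and 99.3% one of PERP.

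Found together in 3000 UMIs, the 2 cadherins of stratified epithelium overlapped in the late libraries. At 4 months DSC3 was found in 29.4% of cells with DSG3 (26.6 to 32.2%) and in 19.7% of cells without it (18.3 to 21.1%), and in signature-positive cells at 2 months in 22.7% (18.7 to 27.0%) and 12.8% (11.4 to 14.2%). At 6 h the 2 shares were 1.33% (0.0337 to 7.21%) and 2.16% (1.53 to 2.95%), so that no difference was detectable. This overlap was not particular to DSG3. At 4 months DSC3 was found in 27.1% of cells with DSC2 (24.8 to 29.5%) and in 19.5% of those without (18.0 to 21.0%). In signature-positive cells at 2 months these shares were 19.8% (17.2 to 22.7%) and 11.7% (10.3 to 13.3%). PKP3 was found in 20.7% of 4-month cells with DSP (19.1 to 22.5%) and in 17.4% of those without (15.7 to 19.1%).

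Cells of 1 library were also compared by division, counted here as at least 1 UMI of MKI67, TOP2A or CDK1 in 3000 UMIs, among signature-positive cells. At 4 months 448 cells held such a UMI and 3758 did not. DSG3 was at 105 CPM without and 41.5 CPM with a dividing gene (2.54-fold, 2.36 to 2.74), DSC2 at 159 and 71.8 CPM (2.22-fold, 2.09 to 2.35), and PERP at 2552 and 1078 CPM (2.37-fold, 2.33 to 2.40). DSP was 1.71-fold and DSC3 1.73-fold higher without a dividing gene, whereas DSG2, at 72.2 and 63.8 CPM, was 1.13-fold higher (1.06 to 1.21) and PKP2, at 8.63 and 8.87 CPM, had a ratio of 0.973 (0.819 to 1.16).

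At 2 months DSG3 was 1.97-fold (1.78 to 2.20), DSC2 1.74-fold (1.64 to 1.86) and PERP 1.72-fold higher without a dividing gene (1.69 to 1.76). At 48 h DSC2 was at 71.4 and 30.2 CPM (2.36-fold, 2.00 to 2.82), with 112 cells that held a dividing gene. This interval included its ratio at 4 months. DSP, PKP3, DSG2, DSG3 and PERP were also higher without a dividing gene at 48 h. DSC3 and PKP2 went the other way there, at 0.614 (0.411 to 0.946) and 0.729 (0.581 to 0.924). At 6 h the ratios were smaller for DSC2, at 1.20-fold (1.10 to 1.31), and for DSG3, at 1.45-fold (1.15 to 1.85). In parental signature-positive cells the ratios of DSC2, DSG2, PKP3 and PERP had intervals that included 1, while that of DSP was 0.884 (0.811 to 0.963) and that of DSC3 0.644 (0.438 to 0.937). The parental ratios differed with the depth of the call. At 3000 UMIs 654 parental signature-positive cells were without and 641 with a dividing gene, and most of the 654 held one at full depth. The parental ratios at 3000 UMIs therefore do not separate dividing from other cells. With all UMIs of a cell used to find a dividing gene, 136 parental signature-positive cells had none, of median depth 16412 UMIs against 25562 in the other 1165, and the ratios were 1.20-fold for DSP (1.03 to 1.40), 1.24-fold for DSG2 (1.09 to 1.40), 1.27-fold for PKP3 (1.05 to 1.52), 1.42-fold for DSC2 (1.16 to 1.72) and 1.43-fold for PERP (1.32 to 1.56). At 4 months the same call gave 2.45-fold for DSG3, 2.20-fold for DSC2 and 2.46-fold for PERP. The 4-month cells with a dividing gene had a median of 39389 UMIs and the others 27828, and the part of this depth difference in the ratios was not tested.

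KRT5, the basal keratin that anchors to desmosomes, was at 0.00488 CPM in culture, 0.522 CPM at 6 h, 1.005 CPM at 48 h, 556 CPM at 2 months and 1749 CPM at 4 months. At 4 months the KRT5-high cells, those at or above percentile 75 of KRT5 among signature-positive cells, held 150 CPM of DSC3, against 54.3 CPM in 119 cells without KRT5 (2.76-fold, 2.21 to 3.49), 159 against 79.1 CPM of DSG3 (2.01-fold, 1.67 to 2.44) and 501 against 228 CPM of DSP (2.19-fold, 1.97 to 2.45). DSC2 was at 206 and 198 CPM, and DSG2 was lower in the KRT5-high cells, at 70.2 against 99.0 CPM. At 2 months the ratios were 2.55-fold for DSC3 (2.22 to 2.94), 2.06-fold for DSG3 (1.82 to 2.33) and 0.966 for DSG2 (0.871 to 1.07). The 119 cells without KRT5 at 4 months had a median of 11040 UMIs against 26273 in the KRT5-high cells.

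Among 8 other genes of the desmosome and the cornified junction, JUP (plakoglobin), the link between cadherins and DSP, was at 28.0 CPM in culture, 319 CPM at 6 h, 312 CPM at 48 h, 194 CPM at 2 months and 273 CPM at 4 months. It was past 2-fold higher than in parental signature-positive cells, at 89.4 CPM, in all 4 lung libraries. DSG1, the desmoglein of the upper layers, had 1 UMI in culture, 0 UMIs at 6 h, 2 UMIs after 48 h, 427 after 2 months and 861 after 4 months, and joined JUP past 2-fold at 2 and 4 months. The plakins PPL and EVPL were past 2-fold higher in parental signature-positive than signature-negative cells, at 30.9 against 0.323 CPM and 19.9 against 0.0288 CPM, and in no lung library over the parental signature-positive cells. DSC1, DSG4 and CDSN were under 5 CPM in all libraries, and PKP4 was past 2-fold lower at 6 h.

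Genes of neighbouring junctions were counted in the same way. Of all genes tested, 12.9% were past 2-fold higher in parental signature-positive than signature-negative cells and 18.9% lower. Over parental signature-positive cells 10.6%, 12.9%, 9.18% and 8.15% of all genes were higher in the lung libraries in order of time, and 12.3%, 9.40%, 6.53% and 14.4% lower. The counts of each list below stand beside these shares. Of 8 hemidesmosome genes, which fix cells to the basement membrane, 7 were past 2-fold higher in parental signature-positive than signature-negative cells, 5 higher at 6 h and 4 at 48 h over parental signature-positive cells, and 4 lower at 2 months. At 4 months 0 of the 8 were past 2-fold in either direction. COL17A1, the transmembrane collagen of the hemidesmosome, was at 50.2 CPM in parental signature-positive cells, 174 CPM at 6 h, 134 CPM at 48 h, 15.2 CPM at 2 months and 45.2 CPM at 4 months. From 48 h to 2 months 6 of the 8 were past 2-fold lower and 0 higher, against 13.0% and 12.2% of all genes, and 3 desmosome members were higher. The median log2 ratio was -1.94 for hemidesmosome genes and -0.05 for all genes. The 2-month library was taken whole here. Within it 6 of the 8 were past 2-fold higher in signature-positive than signature-negative cells, against 18.6% of all genes, and 0 lower, against 21.9%. The part of the class mixture in the drop from 48 h was not tested.

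Of 11 adherens junction genes, 7 were past 2-fold higher in the parental signature-positive class, CDH1 (E-cadherin) among them at 30.3 against 0.796 CPM, and over that class 1, 4, 3 and 3 were higher and 0, 1, 2 and 1 lower in the lung libraries in order of time. The 1 gene higher at 6 h and the 1 lower at 48 h and at 4 months, of 11 tested, are near the share of all genes. JUP is a member of this list too. Of 10 tight junction genes, 7 were higher in the parental signature-positive class and 5, 3, 3 and 2 over it in the lung, with 1, 0, 1 and 3 lower. The 1 gene lower at 6 h and at 2 months, of 10 tested, is near the share of all genes. CLDN1 and CLDN4 were higher in all 4, with CLDN4 at 167 CPM in parental signature-positive cells and 1253, 1526, 461 and 677 CPM in the lung libraries.

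Of 11 keratins, 7 of 7 tested were higher in the parental signature-positive class, and 7 of 10, 6 of 10, 8 of 11 and 7 of 11 were higher in the lung libraries over it, with 0, 0, 2 and 3 lower. KRT14, the partner of KRT5, was at 0.191 CPM in parental signature-positive cells and at 19.8, 89.0, 170 and 1006 CPM in the lung. Of 11 regulators of epithelial junctions 7, 7, 8 and 7 reached the minimum level, of which 4, 4, 3 and 4 were higher over the parental signature-positive class in the lung libraries and 1, 1, 2 and 1 lower. This list pools repressors of the SNAI and ZEB families with other factors. SNAI1 and SNAI2 were among those higher at 6 h and 48 h. SNAI2 was also higher at 4 months, but lower at 2 months. TWIST1 was lower in every lung library. Between the parental classes SNAI2 and TWIST1 were past 2-fold higher in signature-positive cells, and ZEB1 and ZEB2 lower. ZEB1, a repressor of epithelial genes, was at 14.6 CPM in parental signature-negative and 1.78 CPM in signature-positive cells, and at 20.2 and 0.661 CPM in the 2-month classes. It was among the 3 regulators counted as higher at 2 months, where the whole library was compared. In the signature-positive cells of that library its level was below that of the parental signature-positive cells. TP63, the master factor of stratified epithelium, was at 0.0577 and 16.7 CPM in the parental classes and at 42.6 CPM at 4 months. GRHL1, a grainyhead-like factor, was at 3.53 CPM in parental signature-positive cells, 4.15 CPM at 6 h, 3.16 CPM at 48 h, 9.63 CPM at 2 months and 11.9 CPM at 4 months.

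In the comparison of 4 months with parental signature-positive cells, where the median of all genes was -0.23, the median log2 ratio was 0.76 for the other desmosome genes, 0.46 for adherens junction, 0.22 for tight junction and 0.12 for hemidesmosome genes, 1.64 for keratins and 1.3 for regulators. For the 9 members it was 2.15.

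Over the 5 libraries, the genes with a centred log2(CPM + 1) profile closest to DSP among 6851 genes were CELSR2, PRRG4, TFRC, PELI1 and ARSJ, with root mean square differences of 0.20 to 0.24. The closest to the mean of the 9 members were CELSR2, PLD1, TFRC, SAT1 and FZD6, from 0.13 to 0.25. CELSR2, a cadherin of the planar polarity pathway, was at 6.92 CPM in culture and at 24.6, 18.0, 27.7 and 51.6 CPM in the lung. These likenesses rest on 5 points that share depth and class make-up.

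Human markers of other cell types were low in the signature-positive cells of all 5 libraries. The lungs were of mice and the counts were made on the human genome, so these sums cannot show whether mouse cells were present. Fibroblast markers summed to 1.97 to 5.23 CPM, endothelial markers to 0.271 to 0.932 CPM, leukocyte markers to 1.86 to 16.9 CPM, lung epithelial markers to 1.08 to 7.59 CPM and muscle markers to 1.79 to 5.13 CPM. The neural markers were UCHL1, BEX1, STMN2, TUBB3 and NEFL. In the signature-negative cells of culture and of 2 months 4 of 5 reached 5 CPM, as in the parental signature-positive cells. Their sums were 494 and 695 CPM in these signature-negative cells and 118 CPM in the parental signature-positive cells. Over the signature-positive cells of the 5 libraries the sums were 111 to 216 CPM. In those of 4 months UCHL1, BEX1, STMN2 and NEFL were at 0 UMIs, so that the 135 CPM were of TUBB3 alone. In those of 6 h and 48 h BEX1, STMN2 and NEFL were at 0 UMIs, and 1 of the 5 reached 5 CPM. Of the 6 fibroblast markers, DCN, LUM and PDGFRA were at 0 UMIs in the 51 signature-negative cells at 48 h. These cells held 4083 CPM of the list, from 417 UMIs, and 12 UMIs of the 9 members in all. The 9 members summed to 899 CPM with them and 901 CPM without. At 6 h the 42 signature-negative cells held 3477 CPM of leukocyte markers, against 16.9 CPM in signature-positive cells, and 86 UMIs of the 9 members. Of the 6 leukocyte markers, PTPRC, TYROBP and CD3E were at 0 UMIs in these 42 cells. In the 6 h library the 9 members summed to 1157 CPM with these cells and 1160 CPM without. The cell type of the signature-negative cells at 6 h and 48 h was not tested.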

How the data were processed

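Droplet single-cell libraries were counted by the authors with Cell Ranger on GRCh38, and the deposited matrices hold raw UMI counts per gene and cell, not normalized. The matrices gave 9593, 2611, 2073, 6038 and 6397 barcodes in order of time. As in the study, cells were kept that had 200 to 8000 genes, a minimum of 1000 UMIs and a mitochondrial share of no more than 15%, which left 94.4%, 75.0%, 55.4%, 55.0% and 70.3% of barcodes. No doublet caller was run. UMIs were summed over cells and divided by the total (CPM), with exact Poisson intervals, exact binomial intervals for shares and exact conditional intervals for ratios, using Python 3.11.15, numpy 2.4.6 and scipy 1.17.1. For shares of cells, 1000 UMIs were drawn from each cell without replacement. Totals of kept UMIs ranged from 32540023 at 6 h to 204864006 in culture. Before ratios were taken, 1 CPM was added. With 1 library per timepoint no test was made and no p-value is given. TMM factors came from edgeR 4.0.16, used for scaling alone, and clusters from scanpy 1.11.5. Gene positions came from GENCODE release 44 and promoters from RefSeq (GRCh38.p14), in which 7 of the 9 members were matched by symbol. Fold calls and intervals were tested on simulated counts. These were Poisson draws around the summed counts, so they cannot show how the intervals fare with spread between cells, animals or libraries. The genes named are the 9 members, the members of the gene lists, the signature genes, KRT5 and the 5 genes of most alike pattern for DSP and for the mean. The members and lists were chosen with earlier results of these data known. The split of signature-positive cells by dividing genes at 3000 UMIs and the comparison without UCHL1-holding cells were added after seeing the data. 1 signature gene of the study was left out of the classes and 1 gene out of the hemidesmosome list, and neither is reported here.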

Additional observations from a re-analysis of the deposited data

Results flagged for a closer look

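DSC3 went opposite ways between the classes in culture and at 2 months. Its log2 ratio of signature-positive over signature-negative cells was -1.70 in the parental library, from 3.94 and 15.1 CPM, and 1.69 at 2 months, from 52.3 and 15.5 CPM. The signature-negative cells were thus at a like level in both libraries, and the signature-positive cells differed. With 1 library per timepoint the difference between the libraries was not tested.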

How the results depend on the processing

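No paired analysis was possible because each timepoint has 1 library, so no library could be left out of a group either. No value changed sign past 2-fold. Of 316 alternative counts of members past 2-fold, 299 were within 1.5 times the value given. Higher in parental signature-positive cells, 2 members were counted in place of 1 with median-of-ratios scaling, TMM scaling, a minimum of 1 CPM, or without cells holding UCHL1, and 0 lower with a minimum of 20 CPM. At 48 h over the whole parental library, 3 in place of 5 were higher without the quality filter, with TMM scaling or with 5 CPM added, and 0 lower with a minimum of 20 CPM. At 4 months 1 was lower with 0.1 CPM added, and over parental signature-positive cells 0 in place of 1 with TMM scaling. From 48 h to 2 months, 5 in place of 3 were higher in signature-positive cells of the lung alone, and 0 in place of 1 lower in these, without the quality filter or with each cell weighing the same. From 2 to 4 months 0 in place of 4 were higher in signature-positive cells alone or with each cell weighing the same. With each cell weighing the same, DSG3 was 9.80% of its pair at 48 h, 44.6% at 2 months and 59.2% at 4 months, DSC3 25.1% and 36.9% at 2 and 4 months, PKP1 9.04% of plakophilins at 4 months, PKP2 16.7% at 2 months, and PKP3 78.4% and 81.3%. Without the filter DSG3 was 40.4% and 58.6%, PKP2 19.1% and PKP3 76.1% at 2 months, and in signature-positive cells of 2 months DSG3 was 46.2%, PKP2 15.8% and PKP3 79.1%. Cells with none of the 9 genes were 40.5%, 12.0%, 15.7%, 8.97% and 0.996% at 3000 UMIs and 2.72%, 3.68%, 5.31%, 0.602% and 0.311% without thinning, in order of time. At full depth 48 h had the highest share, with 48 of its 61 such cells among its 51 signature-negative cells of median depth 1818 UMIs, and in signature-positive cells it was 1.18%, against 3.03% at 6 h. Cells with fewer than 3000 UMIs (76 to 281 per library) were left out of the deeper draw. Levels stayed within their counting interval in 167 of 300 alternatives. At the depth of the 48 h library, 0 UMIs allow up to 0.0641 CPM.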

Other observations

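Cells that the quality filter removed held the members too. In the 1898 barcodes removed at 4 months, of median depth 4089 UMIs, DSG3 was at 132 CPM and PERP at 1052 CPM, against 96.7 and 2351 CPM in the kept cells. In the 534 barcodes removed from the parental library, DSC3 was at 67.4 CPM and DSG2 at 202 CPM, against 13.4 and 66.0 CPM in the kept cells.

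Of the kept parental cells, 313 had no UMI of any of 11 keratins. They held 61.5 CPM of DSP, 18.2 CPM of DSC3 and 101 CPM of PERP, and 0 UMIs of PKP3 and DSG3. At 48 h 21 kept cells were free of these keratins, with 0 UMIs of all 9 desmosome genes.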
